A study of Mus musculus with 11 samples.

Results

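The genes of the thrombospondins and the α2δ proteins were followed as a ligand and receptor pair in cells sorted as mPFC CRF1+ neurons. These are the neurons of the medial prefrontal cortex (mPFC) that carry the type 1 receptor for corticotropin-releasing factor. The sorted material also held transcripts of fibroblast markers, given below, and which cells made the thrombospondin transcripts was not tested. The 8 genes were chosen by name, with earlier results of these data known. They are the thrombospondins Thbs1, Thbs2, Thbs3 and Thbs4 and the α2δ subunits Cacna2d1, Cacna2d2, Cacna2d3 and Cacna2d4, 8 of the 53465 genes in the count tables. RNA was sequenced from cells sorted by their green fluorescence from adult male CRF1:GFP reporter mice older than 10 weeks, with 1 mouse per library. All mice carried the reporter and all received pyrazole, an inhibitor of alcohol dehydrogenase. The 6 naïve mice (treatment label control) breathed air. The 5 withdrawn mice (treatment label ethanol) had inhaled ethanol vapor in cycles over 5 to 6 weeks, with ethanol injected along with the pyrazole, and were taken 5 to 8 days into abstinence.

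Thrombospondins are large secreted glycoproteins of the extracellular matrix. Thbs1 and Thbs2 form trimers and are known to block the growth of blood vessels, while Thbs3 and Thbs4 form pentamers. In the developing brain, astrocytes secrete thrombospondins and these promote the formation of excitatory synapses. The α2δ proteins sit on the outer face of the membrane as auxiliary subunits of voltage-gated calcium channels and help to bring the channels to presynaptic terminals. The product of Cacna2d1, which is also the binding site of gabapentin, was described as the neuronal thrombospondin receptor in synapse formation. The word receptor is used in this text as a label for all the α2δ genes, and binding of thrombospondins was not tested.

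Each mouse had between 7351567 and 22244869 counts on genes, so that 3 counts in a library correspond to 0.135 to 0.408 CPM (counts scaled to a common library size after TMM normalization). Means are given with their SD over mice (n = 6 naïve, n = 5 withdrawn) wherever ± is used. Naïve mouse 5 had the fewest detected genes, 15585, and withdrawn mouse 4 the most, 31830. The share of reads falling outside exons ran from 5.77% to 31.5% in naïve mice and from 13.3% to 48.1% in withdrawn mice. Crhr1, which encodes CRF1, averaged 92.7 CPM in naïve and 89.3 CPM in withdrawn mice (log2 fold change -0.05, adjusted p = 0.984, edgeR), and 5 markers of glutamatergic neurons summed to between 1323 and 3113 CPM in every mouse. For withdrawn mice 3, 4 and 5 a source label reads control and repeats animal numbers given to naïve mice, against their title and treatment, and the design text of the deposit swaps the sizes of the groups. Withdrawn mice 1 and 2 are thus the 2 whose labels all read ethanol, and they lie at opposite ends of the withdrawn group for the thrombospondins described below.

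The genes are spread over 8 chromosomes of GRCm38, and each is protein coding. Thbs1 (ENSMUSG00000040152) lies at chr2:118111876-118127133 on the plus strand, Thbs2 (ENSMUSG00000023885) at chr17:14665500-14694235 on the minus strand, Thbs3 (ENSMUSG00000028047) at chr3:89215180-89226837 on the plus strand, and Thbs4 (ENSMUSG00000021702) at chr13:92751590-92794818 on the minus strand. Cacna2d1 (ENSMUSG00000040118) lies at chr5:15934691-16374511 on the plus strand, Cacna2d2 (ENSMUSG00000010066) at chr9:107399612-107529343 on the plus strand, Cacna2d3 (ENSMUSG00000021991) at chr14:28904943-29721864 on the minus strand, and Cacna2d4 (ENSMUSG00000041460) at chr6:119236526-119352407 on the plus strand. The merged exons of a member add up to between 3289 bases (Thbs4) and 12416 bases (Cacna2d1), and the genes span from 11658 bases (Thbs3) to 816922 bases (Cacna2d3). Thbs3 shares 318 exonic bases with Mtx1 on the opposite strand, Thbs1 shares 208 with Gm29233 and Cacna2d2 shares 82 with Gm17141.

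Promoter sequences were matched for 6 of the 8 members in RefSeq on GRCm38.p6. The 250 bases before the start site are shown for Thbs2 and Thbs3, which were high in the same withdrawn mice, and for Cacna2d1 and Cacna2d3, which made up nearly all of the α2δ transcript in every mouse. Capitals mark 3 short motifs, TATAAA (on the other strand it reads TTTATA), then CCAAT (on the other strand ATTGG) and finally GGGCGG (on the other strand CCGCCC). The windows are chr17:14694263-14694512 (minus strand), chr3:89214930-89215179 (plus strand), chr5:15934441-15934690 (plus strand) and chr14:29721865-29722114 (minus strand), each written 5′ to 3′ in the direction of transcription.
Thbs2: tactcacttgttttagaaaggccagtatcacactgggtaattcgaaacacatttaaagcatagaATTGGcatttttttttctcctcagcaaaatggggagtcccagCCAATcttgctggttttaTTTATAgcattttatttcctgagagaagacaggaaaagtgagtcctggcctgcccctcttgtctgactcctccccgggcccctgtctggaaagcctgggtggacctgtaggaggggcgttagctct
Thbs3: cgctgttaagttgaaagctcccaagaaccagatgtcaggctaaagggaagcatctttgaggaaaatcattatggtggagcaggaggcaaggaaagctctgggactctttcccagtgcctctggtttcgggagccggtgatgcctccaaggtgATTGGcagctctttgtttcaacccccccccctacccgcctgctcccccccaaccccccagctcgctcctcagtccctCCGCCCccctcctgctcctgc
Cacna2d1: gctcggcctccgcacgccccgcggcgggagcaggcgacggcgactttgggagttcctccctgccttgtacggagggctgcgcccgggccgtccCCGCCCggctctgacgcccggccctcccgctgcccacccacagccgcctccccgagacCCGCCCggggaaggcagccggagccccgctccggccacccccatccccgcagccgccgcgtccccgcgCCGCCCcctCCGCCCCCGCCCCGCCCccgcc
Cacna2d3: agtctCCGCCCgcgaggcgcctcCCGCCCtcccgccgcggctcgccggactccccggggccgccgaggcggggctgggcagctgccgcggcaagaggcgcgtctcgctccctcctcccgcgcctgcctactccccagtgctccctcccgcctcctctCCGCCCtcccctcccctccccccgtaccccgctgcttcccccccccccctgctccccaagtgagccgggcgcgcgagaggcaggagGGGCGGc

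The Thbs2 and Thbs3 windows had lower G and C contents, 46.8% and 58.8%, than those of Cacna2d1 (82.4%) and Cacna2d3 (80%), beside a median of 52% over 27018 promoters. Thbs4 with 70.8% and Cacna2d2 with 74.4% lay between them. The Cacna2d2 window, chr9:107399630-107399879, is placed before the RefSeq start but lies inside the gene span given above. The ratio of observed to expected CpG was 0.219 for Thbs2, 0.289 for Thbs3 and 0.677 for Thbs4, against 0.921 for Cacna2d1, 1.11 for Cacna2d2 and 0.814 for Cacna2d3, with a median of 0.378 over all promoters. GGGCGG was found 6 times before Cacna2d1, 4 times before Cacna2d3, 3 times before Thbs4, 1 time each before Thbs3 and Cacna2d2, and not in the Thbs2 window. This motif is in 32.9% of all promoters of that length. Thbs2 was the only one of the 6 with TATAAA, a motif in 13% of all promoters, and it sits 126 bases before the start. CCAAT was found 2 times before Thbs2 and 1 time before Thbs3, and is in 34.5% of promoters, while TGANTCA, in 6.87%, was in none of the 6. These matches are descriptions of the letters and not of binding.

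The first comparison asks whether the ligands differ between withdrawn and naïve mice. Thbs1, Thbs2 and Thbs3 had higher mean levels in withdrawn mice, with 4 of the 5 withdrawn mice above every naïve mouse for each of these genes, whereas Thbs4 was at or near the counting floor in several mice of both groups. None of the 4 passed the threshold of the main test, an edgeR quasi-likelihood test over 17093 genes that called a gene where the adjusted p did not exceed 0.05 and the log2 fold change was above 0.6 or below -0.6. How many of all tested genes have 4 of 5 withdrawn mice above every naïve mouse was not counted, so that pattern is a description. At least 4 withdrawn mice were also above every naïve mouse in 4 of the 7 fibroblast markers listed below. In sorted bulk material, more cells of a type and more RNA per cell cannot be told apart.

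**Figure D1:**
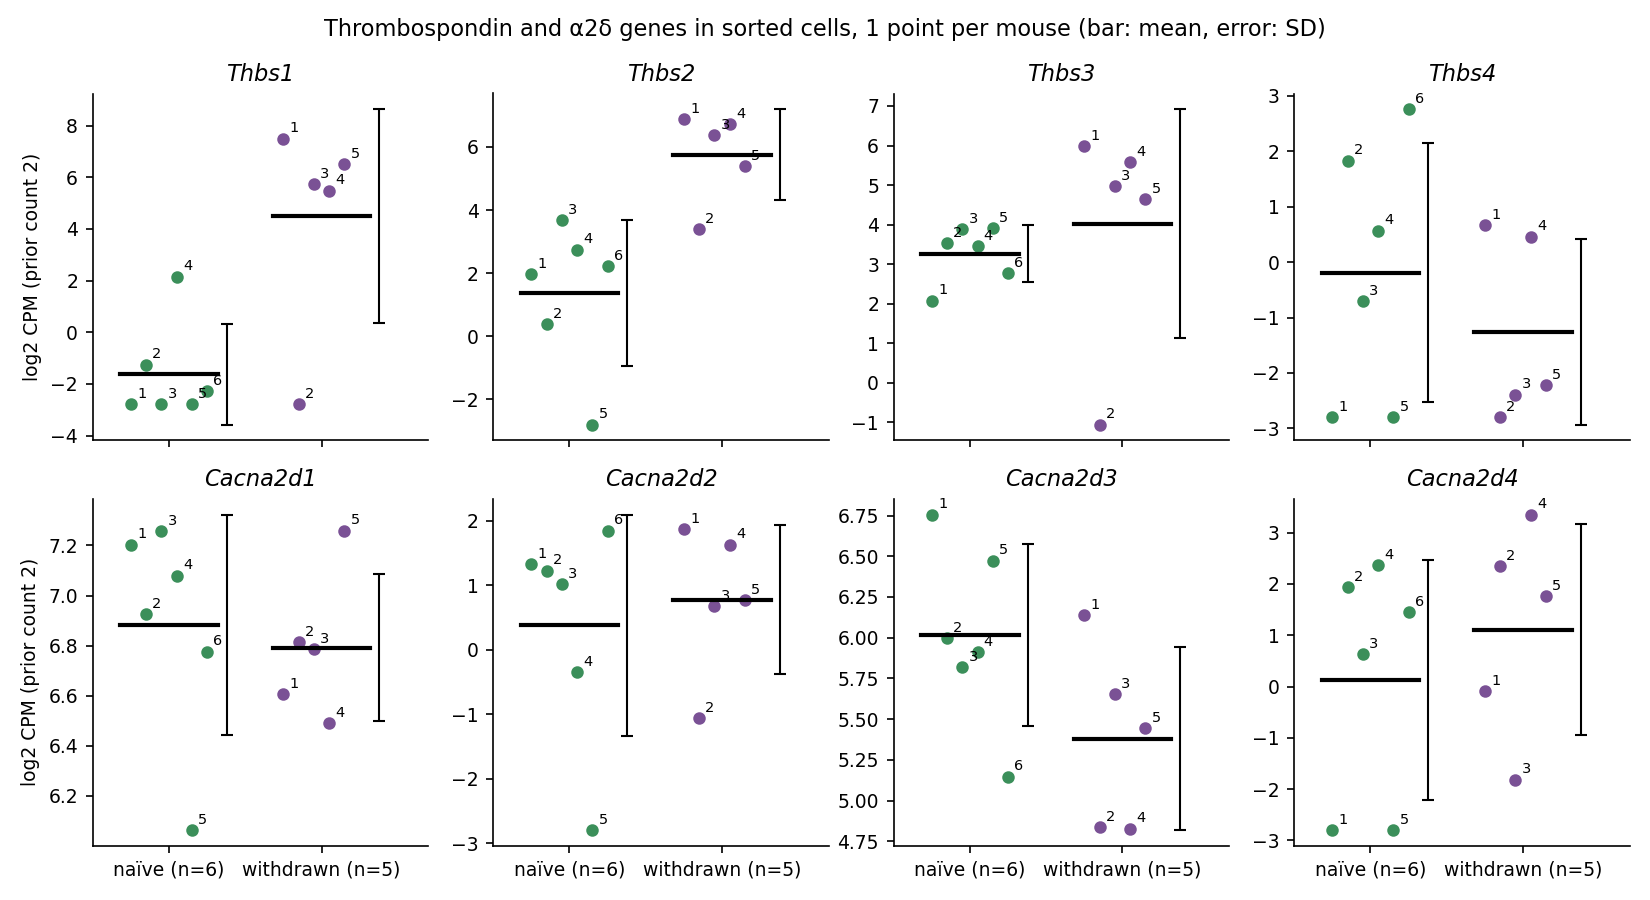
Level of each of the 8 genes in log2 CPM (prior count 2), with 1 point per mouse, numbered by replicate, the group mean as a bar and the SD as an error bar; the axes differ between panels. Withdrawn mice 1, 3, 4 and 5 lie above all 6 naïve mice for Thbs1, Thbs2 and Thbs3, and withdrawn mouse 2 does not.

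Thbs1 counts were 2513, 0, 1145, 364 and 1280 in withdrawn mice 1 to 5, or 181, 0, 53.5, 44.8 and 90.6 CPM. In naïve mice the lowest value was 0, the median 0.0309 CPM and the highest 4.31 CPM. The gene was thus at 0 counts in 3 naïve mice and in withdrawn mouse 2, and the other 4 withdrawn mice stood above the highest naïve mouse, which was naïve mouse 4 with 74 counts. The group means were 0.774 ± 1.74 CPM in naïve and 74.0 ± 68.0 CPM in withdrawn mice. The log2 fold change was 6.47 with a standard error of 1.46 (95% interval 3.34 to 9.61, unadjusted p = 0.000591, adjusted p = 0.137, edgeR). Over all 462 splits of the mice, a two-sided exact permutation test of the log2 CPM values gave p = 0.0281, where the smallest possible p is 0.00216. Naïve mouse 4 alone held 92.8% of the summed naïve CPM, and without withdrawn mouse 2 the standard error was 1.13. Only this naïve mouse and the 4 high withdrawn mice had more than 5 counts. The gene thus passed the filter on low counts mainly through the group where it is high, and without naïve mouse 4 it did not pass.

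Thbs2 was the thrombospondin with the smallest p in both tests. Its withdrawn values were 118, 10.4, 83.2, 105 and 41.8 CPM in mice 1 to 5, from 93 counts in mouse 2 to 1781 in mouse 3. Naïve values ran from 0 through a median of 4.13 to 12.7 CPM. Withdrawn mice 1, 3, 4 and 5 lay above all naïve mice, and withdrawn mouse 2 lay above 5 of the 6 naïve mice and below naïve mouse 3. The means were 4.79 ± 4.56 CPM and 71.6 ± 44.8 CPM, and the log2 fold change was 3.91 with a standard error of 0.87 (95% interval 2.03 to 5.79, unadjusted p = 0.000552, adjusted p = 0.133, edgeR). The exact permutation test gave p = 0.00649. DESeq2, run as an alternative, gave 3.95 for this gene (adjusted p = 0.00114). Thbs2 was thus higher in withdrawn mice by that test and was the only member it called. Thbs1 had an adjusted p of 0.0510 in DESeq2. On counts simulated with the estimated dispersion, DESeq2 made 58 false calls beside 137 right ones, and edgeR 6 beside 117.

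Thbs3 was the only thrombospondin with counts in all 11 mice. Withdrawn values were 63.5, 0.336, 31.3, 47.6 and 25.0 CPM in mice 1 to 5, against 4.08, 11.1 and 14.8 CPM as the lowest, median and highest naïve values. The groups overlapped only through withdrawn mouse 2, whose 3 counts put it below every naïve mouse. The means were 10.4 ± 4.30 CPM and 33.5 ± 23.8 CPM, with a log2 fold change of 1.69 and a standard error of 0.72 (95% interval 0.13 to 3.25, unadjusted p = 0.0356, adjusted p = 0.646, edgeR). On log2 CPM, where the value of withdrawn mouse 2 weighs more, the exact permutation p was 0.597. Mtx1, the gene on the other strand that shares exons with Thbs3, had 45.8 ± 12.9 CPM in naïve and 38.5 ± 12.9 CPM in withdrawn mice (log2 fold change -0.25, adjusted p = 0.915, edgeR).

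Thbs4 was low throughout. Withdrawn values were 1.44, 0, 0.0467, 1.23 and 0.0707 CPM in mice 1 to 5, and naïve values had a lowest of 0, a median of 0.904 and a highest of 6.61 CPM. No withdrawn mouse lay above the highest naïve mice, naïve mouse 6 (107 counts) and naïve mouse 2 (62 counts), and the groups overlapped. The log2 fold change was -1.82 with a standard error of 1.50 (95% interval -5.04 to 1.39, adjusted p = 0.868, edgeR, exact permutation p = 0.424), an interval that holds large differences in either direction.

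Set against the whole table, 3 of the 4 thrombospondins had an unadjusted p under 0.05 in edgeR with a higher level in withdrawn mice, beside 5.00% of all 17093 tested genes, and 2 of them, Thbs1 and Thbs2, had a log2 fold change above 3, beside 1.68% of all tested genes. The median log2 fold change was 2.80 over the 4 thrombospondins and 0.02 over all tested genes. The members, and the lists of partner genes below, were chosen with earlier results of these data known. Shares of them beside all genes are therefore descriptions and no test of a family or list. After adjustment 0 of the 8 members were called, beside 0.00585% of all tested genes (1 gene), and 3 of the 8 had an unadjusted p under 0.05, beside 7.22%. DESeq2 called 1 of the 8 higher, beside 1.57% of the 21849 genes it gave an adjusted p. No member separated the groups completely, which 0.948% of tested genes did.

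**Figure D2:**
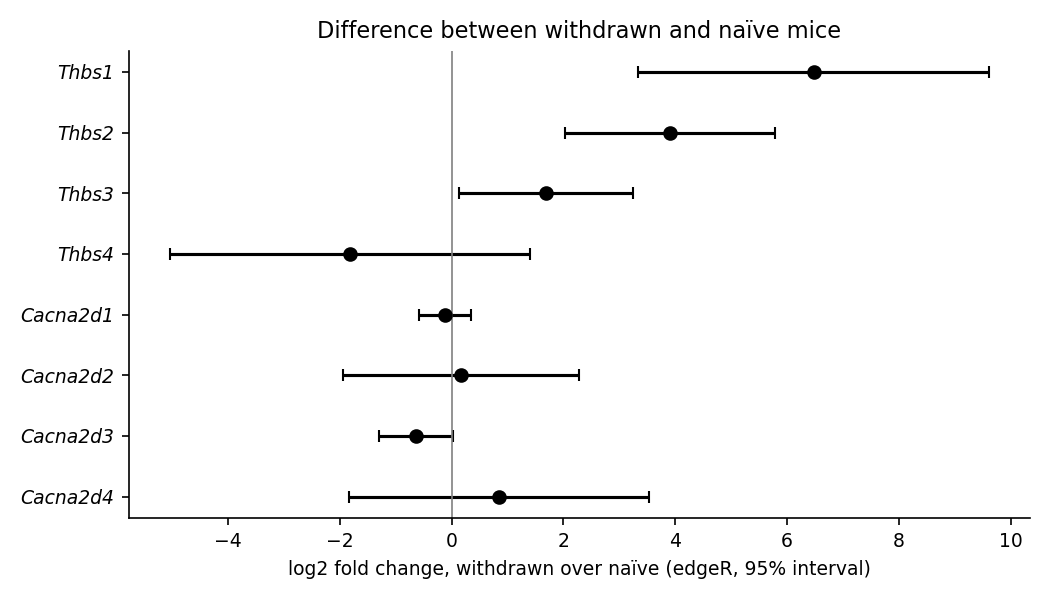
Log2 fold change of each member, withdrawn over naïve, from edgeR, with the 95% interval as a horizontal line. The intervals of Thbs1, Thbs2 and Thbs3 lie above 0, from a lower bound of 0.13 for Thbs3 to an upper bound of 9.61 for Thbs1, before any adjustment for the number of genes tested, and the other 5 cross 0.

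Withdrawn mouse 2 carried much of the spread. Without it, edgeR gave log2 fold changes of 6.76 for Thbs1 (adjusted p = 0.0137), 4.18 for Thbs2 (adjusted p = 0.0251) and 1.98 for Thbs3 (adjusted p = 0.0283), and all 3 were then called higher, beside 1.06% of the genes tested in that fit. Without the filter on low counts Thbs1 and Thbs2 were called, beside 0.325% of 41907 genes. This mouse was the lowest of its group for each of the 3 genes, so that leaving it out removes the values that go the other way. Without withdrawn mice 3, 4 and 5, whose labels conflict, the values were 6.76 for Thbs1, 3.73 for Thbs2 and 1.60 for Thbs3, with adjusted p between 0.647 and 0.812 in edgeR and 2 withdrawn mice left.

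The next comparison concerns the receptors. The 2 α2δ genes with substantial levels, Cacna2d1 and Cacna2d3, had overlapping values in the 2 groups, and neither passed the test. Cacna2d2 and Cacna2d4 were near the floor in several mice.

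Cacna2d1, whose product binds gabapentin, had 97.4, 112, 110, 89.8 and 153 CPM in withdrawn mice 1 to 5. Naïve values were 66.8 at the lowest, 128 at the median and 153 at the highest. The lowest value of all 11 was that of naïve mouse 5, and the groups overlapped over nearly their whole range. Means were 122 ± 31.5 CPM and 113 ± 24.5 CPM, with a log2 fold change of -0.12 and a standard error of 0.21 (adjusted p = 0.956, edgeR, exact permutation p = 0.723). Its 95% interval ran from -0.58 to 0.34, which corresponds to between 0.670 and 1.27 times the naïve level, the narrowest interval among the 8 genes.

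Cacna2d3, the subunit linked to pain sensing and hearing in mice, had 70.4, 28.4, 50.2, 28.3 and 43.4 CPM in withdrawn mice 1 to 5 and 35.3, 61.9 and 108 CPM as the lowest, median and highest naïve values. Withdrawn mice 2 and 4 lay below every naïve mouse, and the other 3 were inside the naïve range. The means were 68.7 ± 25.7 CPM and 44.1 ± 17.5 CPM. The log2 fold change of -0.64 had a standard error of 0.31 and a 95% interval of -1.30 to 0.03 (unadjusted p = 0.0599, adjusted p = 0.713, edgeR, exact permutation p = 0.0931). It had the smallest p of the α2δ genes and did not pass the test. Withdrawn mice 2 and 4 were also the 2 libraries with the largest shares of reads outside exons, 39.6% and 48.1%, and the part of this in the value was not tested.

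Cacna2d2, known for the ataxia of mice that lack it, had 3.53, 0.336, 1.45, 2.95 and 1.56 CPM in withdrawn mice and naïve values of 0, 2.04 and 3.46 CPM at the lowest, median and highest. Counts reached at most 56 in any mouse and the groups overlapped. The log2 fold change was 0.16 with a 95% interval of -1.95 to 2.27 (adjusted p = 0.986, edgeR), and its sign turned in several alternative fits.

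Cacna2d4, best known from photoreceptors of the retina, had 0.792, 4.92, 0.140, 10.1 and 3.25 CPM in withdrawn mice 1 to 5 and naïve values of 0, 2.00 and 5.01 CPM at the lowest, median and highest. Withdrawn mouse 4, the library with the most detected genes and the most reads outside exons, was the only one above the naïve range, and its part in the group difference was not tested. The log2 fold change was 0.84 with a 95% interval of -1.84 to 3.53 (adjusted p = 0.943, edgeR), and it was 0.11 without this mouse.

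Among the α2δ genes, 0 of 4 had an unadjusted p under 0.05 in edgeR and 2 of 4 had a positive log2 fold change, beside 51.8% of all tested genes. The median over the 4 was 0.02.

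Levels of different genes were compared per kilobase of exons. In naïve mice the order from high to low was Cacna2d1 with 9.84 ± 2.54, Cacna2d3 with 7.88 ± 2.95, Thbs3 with 2.15 ± 0.89, Thbs2 with 0.684 ± 0.651, Thbs4 with 0.599 ± 0.793, Cacna2d4 with 0.223 ± 0.214, Cacna2d2 with 0.221 ± 0.157 and Thbs1 with 0.128 ± 0.286 CPM per kilobase. Neighbours in this order were compared within mice by a two-sided exact permutation test of the paired differences. The order of each group came from these same values, so the p values describe it and are no separate test. Cacna2d3 exceeded Thbs3 in 6 of 6 naïve mice and Thbs3 exceeded Thbs2 in 6 of 6 (unadjusted p = 0.0312 each, the smallest that 6 pairs can give, and 0.109 after Benjamini-Hochberg adjustment over the 7 pairs). Cacna2d1 exceeded Cacna2d3 in 4 of 6 mice (exact p = 0.312), and the remaining 4 neighbour pairs had exact p values of 0.500 or more, and no pair passed 0.05 after adjustment.

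In withdrawn mice the order began with Thbs1 at 12.2 ± 11.2, Thbs2 at 10.2 ± 6.39, Cacna2d1 at 9.06 ± 1.97, Thbs3 at 6.95 ± 4.94 and Cacna2d3 at 5.06 ± 2.01 CPM per kilobase. Cacna2d4 at 0.405 ± 0.420, Cacna2d2 at 0.247 ± 0.161 and Thbs4 at 0.170 ± 0.217 came last. With 5 pairs the exact test cannot go below p = 0.0625. That value was reached for Cacna2d3 over Cacna2d4, where all 5 mice were higher and the lowest Cacna2d3 value, 3.24, lay above the highest Cacna2d4 value, 1.06 CPM per kilobase. The ranges of the first 5 genes overlapped with those of their neighbours in that set.

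**Figure D3:**
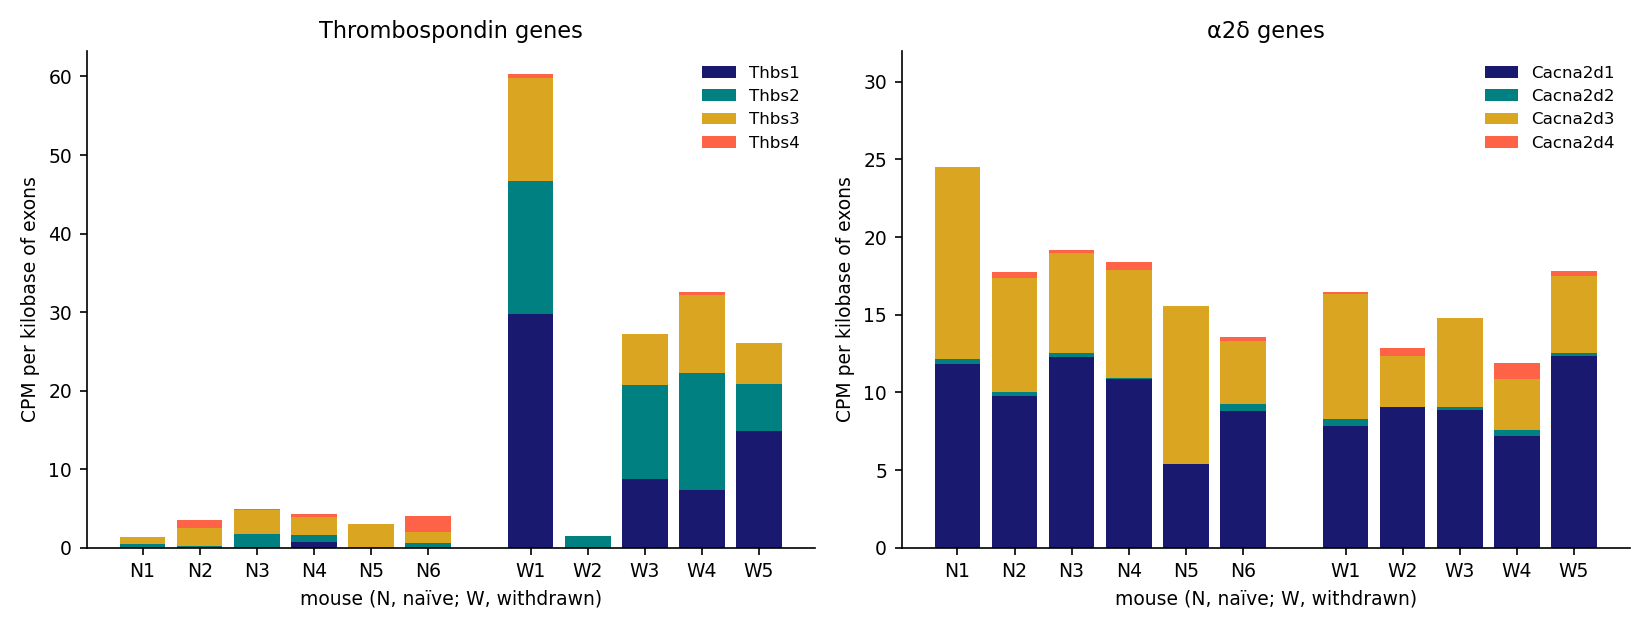
Stacked CPM per kilobase of exons for the 4 thrombospondin genes (left) and the 4 α2δ genes (right) in each mouse, with different y axes. The thrombospondin sum stays at or below 5.00 in all 6 naïve mice and in withdrawn mouse 2 and is at least 26.1 in the other withdrawn mice, while the α2δ sum lies between 11.9 and 24.5 in every mouse.

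Summed per kilobase, the thrombospondins stood at 60.3, 1.56, 27.2, 32.5 and 26.1 CPM per kilobase in withdrawn mice 1 to 5. The naïve sums were 1.38, 3.82 and 5.00 at the lowest, median and highest. Withdrawn mouse 2 fell inside the naïve range and the other 4 lay above it. The α2δ sum was 18.2 ± 3.73 CPM per kilobase in naïve and 14.8 ± 2.45 in withdrawn mice, with overlapping values.

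The make-up of the thrombospondin sum also differed between mice. Thbs3 was the largest part in 5 of 6 naïve mice, with a mean share of 62.3 ± 21.6%, and Thbs4 was the largest in naïve mouse 6. In withdrawn mice Thbs2 was the largest part in 3 and Thbs1 in 2. The Thbs3 share was 20.1 ± 9.56%, from 4.47% to 30.3%, below the lowest naïve share of 34.2%. Thbs3 itself averaged 2.15 CPM per kilobase in naïve and 6.95 in withdrawn mice, so the lower share is not a lower mean level. In withdrawn mouse 2, whose sum was as low as in naïve mice, Thbs2 made up 95.5% and Thbs3, from 3 counts, 4.47%. On the receptor side Cacna2d1 was the largest part in 8 of the 11 mice and Cacna2d3 in the other 3, and these 2 genes together made up 88.0% to 100% of the α2δ sum in each mouse. The α2δ make-up by group was 54.4 ± 11.5% Cacna2d1 in naïve and 61.5 ± 9.06% in withdrawn mice.

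Markers of fibroblasts moved with the thrombospondins. The list (Col1a1, Col1a2, Col3a1, Dcn, Lum, Ogn and Slc6a13) summed to 1318, 18.4, 672, 927 and 225 CPM in withdrawn mice 1 to 5 and to 0.0677, 17.6 and 72.7 CPM as the lowest, median and highest naïve values. Mice 1, 3, 4 and 5 of the withdrawn group, which were high in Thbs1, Thbs2 and Thbs3, were thus also above all naïve mice in this sum, and withdrawn mouse 2 was within the naïve range. Of the 7 markers Lum did not pass the filter, with means of 1.36 CPM in naïve and 0.910 CPM in withdrawn mice. The other 6 markers were tested, with log2 fold changes of 1.25 to 5.36 (median 4.18). Of these, 5 had an unadjusted p under 0.05 in edgeR and a higher level, beside 5.00% of all tested genes, and edgeR called 0. DESeq2, with the limit on its false calls given above, called 3 higher, beside 1.57% of the genes it gave an adjusted p. Among withdrawn mice the order of the fibroblast sum, from mouse 1 through 4, 3 and 5 to 2, was also the order of Thbs2 and of Thbs3, but not of Thbs1, which was second highest in mouse 5.

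**Figure D4:**
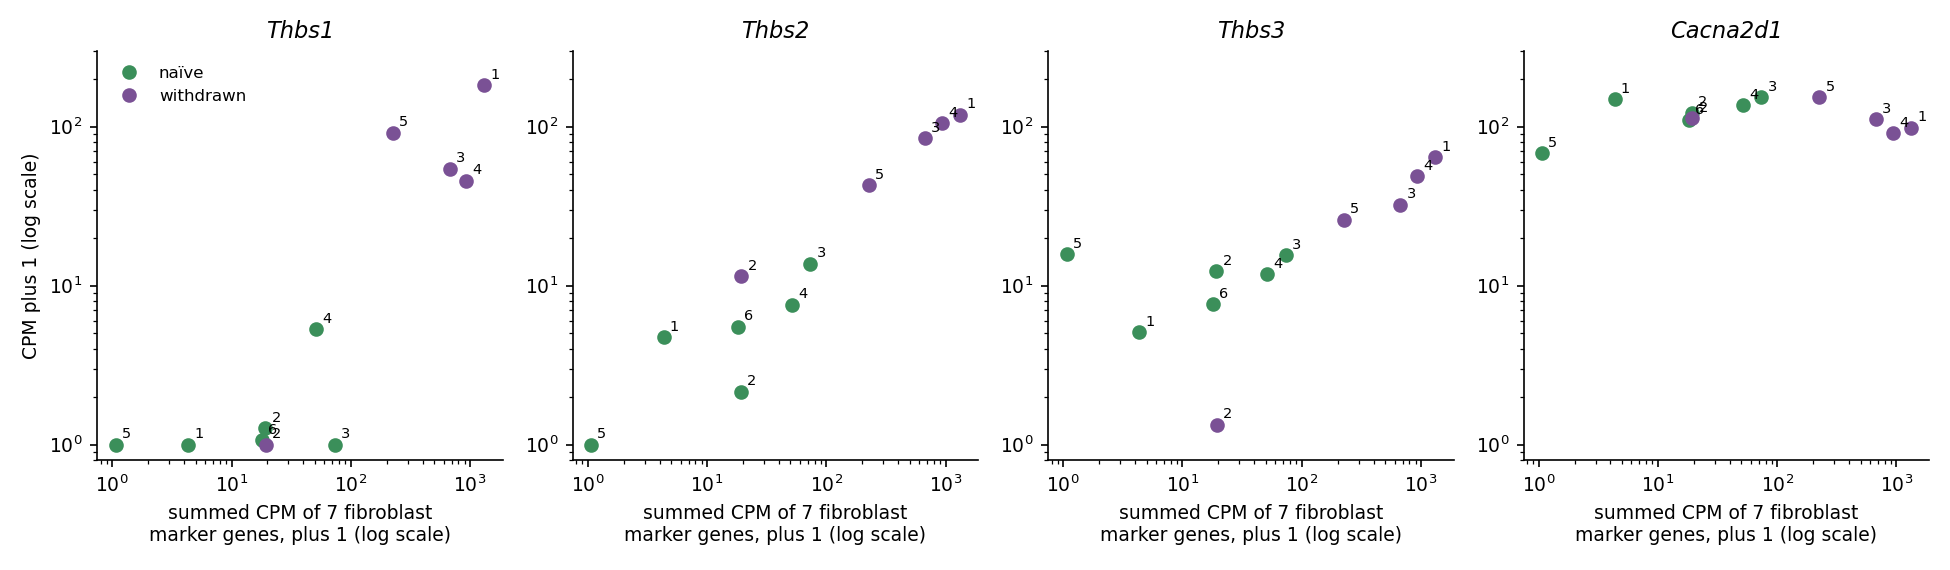
CPM plus 1 of Thbs1, Thbs2, Thbs3 and Cacna2d1 against the summed CPM plus 1 of the 7 fibroblast markers, on log axes, with 1 numbered point per mouse. Withdrawn mice 1, 3, 4 and 5 are high on both axes for the thrombospondins, naïve mouse 5 has Thbs3 at 14.8 CPM with a marker sum of 0.0677 CPM, and Cacna2d1 shows no such ordering.

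The naïve mice ran from 3 through 4, 2, 6 and 1 to 5 in the fibroblast sum, and from 5 through 3, 2, 4 and 6 to 1 in Thbs3, so that the orders were alike apart from mouse 5 and an exchange of mice 2 and 4. Naïve mouse 5, the library with the fewest detected genes, had 6 of the 7 fibroblast markers at 0 counts and the highest naïve Thbs3, 219 counts, whereas its Thbs1 and Thbs2 counts were 0. Withdrawn mouse 2, with a marker sum of 18.4 CPM, had 93 counts of Thbs2 beside 3 of Thbs3. With a fibroblast marker score as a covariate, a fit chosen after the data were seen, the log2 fold changes were 3.93 for Thbs1, 1.60 for Thbs2, 0.42 for Thbs3 and -7.97 for Thbs4 (unadjusted p = 0.00718 for Thbs4), with adjusted p values of at least 0.966 in edgeR. The score differs between the groups in the same mice, so that group and score cannot be told apart in this fit.

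The remaining marker lists were summed in the same way. The astrocyte list summed to 333, 22.1, 256, 371 and 171 CPM in withdrawn mice and to 33.7, 57.6 and 172 CPM as the lowest, median and highest naïve values. That difference lay in 1 gene, the gap junction gene Gja1 (log2 fold change 3.61, adjusted p = 0.250, edgeR), while the other 4 tested markers, with Aqp4, Aldh1l1, Slc1a3 and Sox9, had negative log2 fold changes and Gfap, with counts in 8 of 11 mice and means of 12.2 CPM in naïve and 1.06 CPM in withdrawn mice, did not pass the filter. Microglial markers summed to at most 6.47 CPM in naïve and to between 6.87 and 17.5 CPM in withdrawn mice, low sums whose ranges did not overlap. Most of that difference lay in Tmem119, with means of 0.543 and 7.39 CPM, while the means of P2ry12 (0.234 and 0.0246 CPM) and Csf1r (0.977 and 0.832 CPM) were lower in withdrawn mice. Endothelial, mural, oligodendrocyte, oligodendrocyte precursor and GABAergic sums overlapped between the groups, though genes within 2 of these lists moved apart. Sst averaged 247 CPM in naïve and 6.53 CPM in withdrawn mice (log2 fold change -5.33, unadjusted p = 0.0221, adjusted p = 0.545, edgeR). The other 5 GABAergic markers had positive values. The mural marker Pdgfrb averaged 4.25 and 28.7 CPM (2.74, unadjusted p = 0.0469, adjusted p = 0.686, edgeR), and the other 3 tested mural markers had negative values. The part of these cells in the thrombospondin values was not tested.

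Partner genes of the 2 families were listed by function, 42 genes of which 36 were tested, and 0 were called by edgeR. Of 15 thrombospondin receptors and binding partners 14 were tested, and 2 had an unadjusted p under 0.05, both higher. Itgb1, the integrin β1 chain, had 45.4 ± 14.6 CPM in naïve and 153 ± 89.8 CPM in withdrawn mice, a log2 fold change of 1.75 (adjusted p = 0.118 in edgeR and 0.00280 in DESeq2, which called it). Lrp1, an endocytic receptor that clears thrombospondins, had 215 ± 96.4 and 345 ± 76.0 CPM (log2 fold change 0.68, adjusted p = 0.678, edgeR). The extremes of the list were Sdc4, a cell-surface proteoglycan, at 1.80 and Itga6, the integrin α6 chain, at -0.99, and neither passed the test. The 2 of 14 stand beside 5.00% of all tested genes. The median over the list was 0.34, beside 0.02 over all genes, and 12 of 14 values were positive, beside 51.8% of all tested genes.

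Other matricellular and astrocyte-secreted proteins that organize synapses formed a second list, with 8 of 11 genes tested, of which 4 had an unadjusted p under 0.05 and a higher level, beside 5.00% of all tested genes, and 1 had a lower level, beside 2.22%. Gpc6, a glypican that astrocytes use to recruit glutamate receptors, had 10.6, 21.7 and 29.6 CPM as the lowest, median and highest naïve values and 43.0 to 52.0 CPM in withdrawn mice. All 5 withdrawn mice, mouse 2 included, lay above all 6 naïve mice, as for 0.690% of tested genes. Its log2 fold change was 1.16 with a standard error of 0.28 (adjusted p = 0.167 in edgeR and 0.00290 in DESeq2, exact permutation p = 0.00433).

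The other 3 with higher levels did not separate the groups completely. Spp1, osteopontin, had the largest log2 fold change, 3.59 (adjusted p = 0.473), followed by Ccn1 with 2.67 (adjusted p = 0.594) and Sparc with 2.23 (adjusted p = 0.413), all from edgeR. Sparc was above every naïve mouse in 4 withdrawn mice, and Spp1 and Ccn1 in 3. Sparcl1, hevin, was the gene with the lowest value, -0.48 (unadjusted p = 0.0355, adjusted p = 0.646, edgeR), with means of 662 ± 202 CPM and 475 ± 87.5 CPM. The median over the list was 0.94.

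On the receptor side the estimates for the tested partners lay between -0.43 and 0.15. Of the α1 and β channel subunits that assemble with α2δ, 9 of 11 were tested and 0 had an unadjusted p under 0.05. The log2 fold changes ran from -0.43 for Cacnb1 to 0.15 for Cacna1d with a median of -0.10. The 95% interval was -0.87 to 0.01 for Cacnb1 (unadjusted p = 0.0542, edgeR) and -0.90 to 0.90 for Cacnb2, so differences of that size are not excluded. The 5 partners of α2δ outside the channel complex, among them the NMDA receptor subunit Grin1 and the potassium channel Kcnma1, were all tested with values from -0.19 for Kcnma1 to 0.03 for Grin1 and a median of -0.13. None of these 14 tested partners was called by edgeR or DESeq2, and 0 had an unadjusted p under 0.05 in edgeR.

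**Figure D5:**
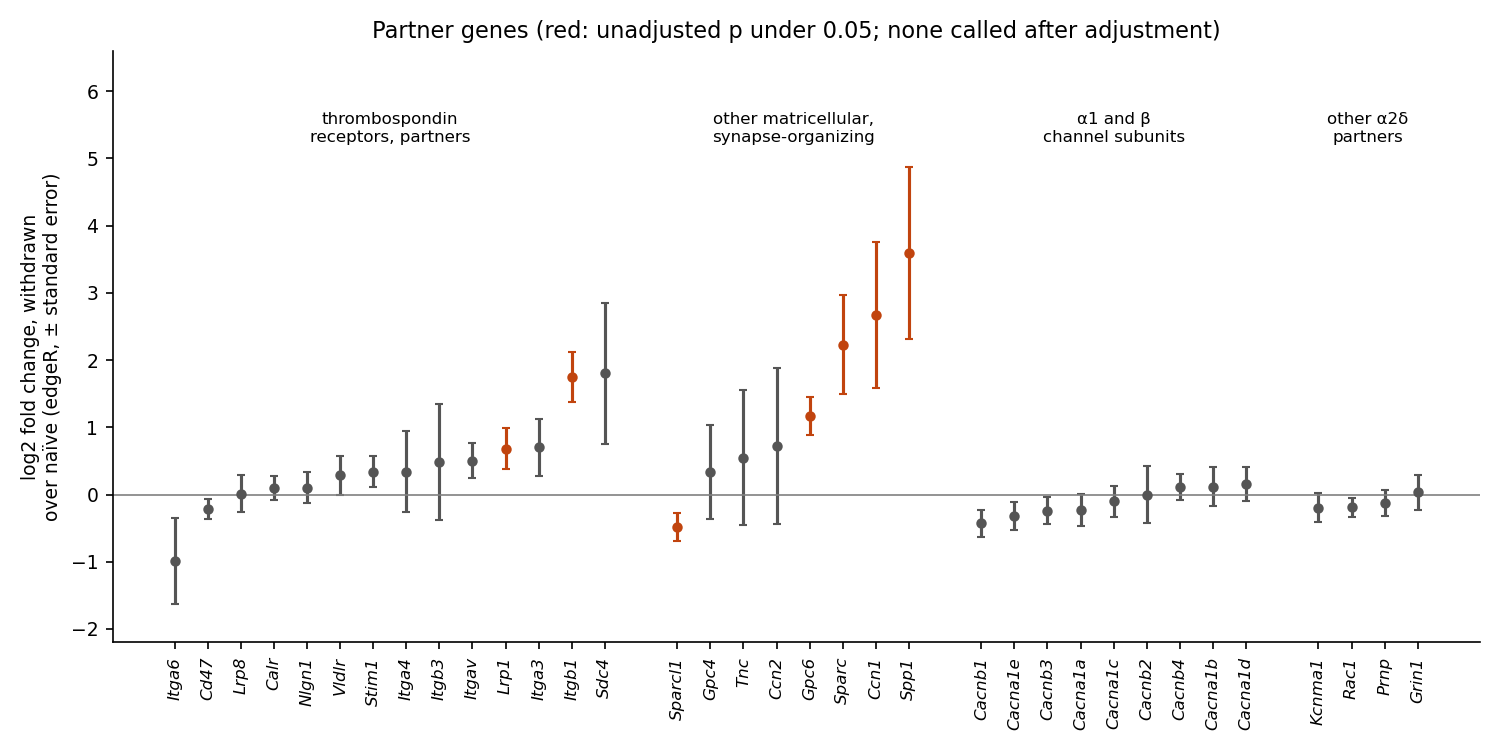
Log2 fold change, withdrawn over naïve, with its standard error, for tested partner genes in 4 lists. Genes with an unadjusted p under 0.05 are in red, and they all belong to the thrombospondin receptor list (2 of 14) and the matricellular list (5 of 8), with none among the α2δ partners plotted.

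For each member the genes with the most similar pattern over the 11 mice were found by Pearson's r of log2 CPM among 10207 or 10208 genes with a mean of at least 10 CPM. The mice share library depth and sorting in all these values, and r is given as a description. Thbs1 was most like H2-Aa, a class II histocompatibility gene (r = 0.975), and Wls, the Wnt ligand carrier (r = 0.948). For Thbs2 the likest genes were Slc12a7, a potassium chloride cotransporter (r = 0.994), and Rassf2 (r = 0.987). Thbs3 was most like Magt1 (r = 0.978).

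Since 4 of the 5 withdrawn mice lie above all naïve mice in Thbs1, Thbs2 and Thbs3, r was also computed after removing the group means, and it was 0.947 for Thbs1 with H2-Aa, 0.984 for Thbs2 with Slc12a7 and 0.978 for Thbs3 with Magt1. Without the 2 mice farthest from the median, r was 0.982, 0.986 and 0.911 for the same pairs. Spearman's rho over all mice was 0.819, 0.973 and 0.964. The pairs were picked for their high r in these same mice, so none of these values is a separate check. Cacna2d1 was most like the cadherin gene Cdh8 (r = 0.953) and Tfe3 (r = 0.921), and Cacna2d3 most like Actr10 (r = 0.924) and Mrpl36 (r = 0.918). The low genes had Rprd2 (0.852) and Kat7 (0.845) for Thbs4, Pcnx (0.965) and Klhl25 (0.958) for Cacna2d2, and Ints6l (0.902) and Ttc21b (0.881) for Cacna2d4.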

How the data were processed

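RNA from cells sorted as mPFC CRF1+ neurons from single mice (160 pg per library, SMARTseq HT kit, single reads of 75 nt) was analysed for 6 naïve and 5 withdrawn mice. The authors trimmed reads with cutadapt, mapped them with STAR to GRCm38 and tallied them per Ensembl gene with HTSeq. What they deposited is the raw counts, without normalization. The strand setting was not given in the sources used here. Symbols, exon lengths and positions came from GENCODE M21 on GRCm38, and promoters from RefSeq.

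Groups follow title and treatment. The members and lists were chosen with earlier results of these data known. Counts were fitted in edgeR 4.0.16 (TMM, filterByExpr with a minimum count of 10 and total of 15, quasi-likelihood test, Benjamini-Hochberg over 17093 genes, standard error from the F statistic), and all 8 members passed the filter. DESeq2 1.42.0 and limma 3.58.1 were alternatives, and R was 4.3.3. Fits were tested on simulated data, with 200 of 17093 genes changed by a log2 fold change of 3. At the estimated dispersion edgeR recovered 117 with 6 false calls, and DESeq2 137 with 58 false calls. DESeq2 calls in the text carry this limit. The floor of 3 counts covers counting error only, since reads are amplified, while the 95% intervals of fold changes come from the fit and carry the spread between mice. Libraries were separate in content (chi-square per degree of freedom at least 29.3 within groups). Named were all members, the extremes of each partner list, genes with an unadjusted p under 0.05, and the 2 genes most like each member, apart from items that are not reported here. Cell type marker lists were used for values that move with a member.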

Additional observations from a re-analysis of the deposited data

Results flagged for a closer look

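The gap between the outermost mouse and the next, over the range of the group, was compared with a critical value. By this rule a mouse stood far from its group in 3 of the 16 sets of log2 CPM values (8 genes in 2 groups). About 0.8 sets would be reached with normal and independent values. These values are not, since several are tied at 0 counts and the sets share mice, so the number is only a rough guide. Thbs1 in naïve mouse 4 was at a log2 CPM of 2.15 (4.31 CPM, 74 counts), above the other 5 naïve mice, 3 of which had 0 counts. Thbs1 in withdrawn mouse 2 was at -2.80 (0 counts), below the other 4 withdrawn mice. Thbs3 in the same mouse was at -1.06 (0.336 CPM, 3 counts), also below its group.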

How the results depend on the processing

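Over all genes edgeR called 1, as it did with DESeq2 size factors, TMMwsp or no fold threshold, and limma voom called 1 as well. The count was 362 with DESeq2 (342 higher, 20 lower), 137 without a filter, 30 with at least 10 counts in every mouse, 26 with genes detected as a covariate, 0 with the replicate block, the fibroblast score, an adjusted p of 0.01 or without the 3 conflicting-label mice, and 0 to 193 with a mouse left out, 193 without withdrawn mouse 2; the cause was not tested.

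Among the members, Thbs1 passed the test without the filter (6.47, adjusted p = 0.0101), Thbs2 did so too (3.90, adjusted p = 0.0103) and under DESeq2 (3.95, adjusted p = 0.00114). With each mouse left out the log2 fold changes ran from 5.85 to 6.76 for Thbs1, 3.64 to 4.49 for Thbs2, 1.31 to 1.98 for Thbs3, -2.63 to -1.55 for Thbs4, -0.27 to -0.04 for Cacna2d1, -0.18 to 0.48 for Cacna2d2, -0.88 to -0.47 for Cacna2d3 and 0.11 to 1.31 for Cacna2d4, and Thbs1, Thbs2 and Thbs3 passed only without withdrawn mouse 2. Cacna2d2 turned negative with genes detected (-0.14) or the fibroblast score (-1.65) as a covariate and without naïve mice 4 (-0.01) or 5 (-0.10) or withdrawn mice 1 (-0.18) or 4 (-0.03), and Cacna2d4 with limma voom (-0.86). Leaving out a mouse dropped Thbs1 from 1 of 11 fits, the one without naïve mouse 4, and Thbs4 from 3. At least 10 counts in every mouse kept only Cacna2d1 and Cacna2d3. The median over all genes was 0.25 in DESeq2 and 0.17 without the filter.

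By their titles same-numbered mice are different animals, though source labels of 3 withdrawn mice repeat animal numbers of naïve mice. Deviations of same-numbered mice correlated at -0.01, -0.06, -0.20, 0.04 and 0.18, and 1 of 5 matched its own number best. With the replicate block the values were 6.81, 4.35, 1.12 and -0.55 for Thbs1 to Thbs4 and -0.13, 0.86, -0.81 and 1.62 for Cacna2d1 to Cacna2d4, with 0 called.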
